A study of Mus musculus with 38 samples.

Results

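Expression in epididymal stromal vascular cells was compared between mice given 5 µg of the ethnobotanical formulation KAL-1 on a high fat, high sucrose diet (HF5) and mice given that diet alone (HFC), at weeks 3, 6, 9, 12, 15 and 18. All arrays whose title and source name say HF5 or HFC at those weeks were taken, which gave 6 HF5 and 6 HFC arrays, 12 of the 38 arrays of the series. Both diets took 60% of calories from fat, were given to C57BL/6J mice weaned at 3 to 4 weeks of age, and differed, per the labels, in the formulation only. Each diet held 30 mice, of which 5 were sacrificed every 3 weeks. The labels do not say whether their RNA was pooled. There was 1 array per diet and week, so that each difference below was set against its spread over weeks, and a p-value measures that spread and not the spread between mice. The source name gives 5 µg for all 6 HF5 arrays, whereas the diet label of the arrays of weeks 15 and 18 gives 20 µg. The spread was estimated over the 30 arrays of weeks 3 to 18, which also hold a low fat control diet (LFC) and the 20 µg and 75 µg doses (HF20 and HF75).

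The stromal vascular fraction is what remains of fat tissue once the floating adipocytes are taken off, and holds macrophages and other leukocytes, endothelial cells, pericytes, progenitors of adipocytes and, at the surface of the pad, mesothelial cells. In obesity macrophages gather in epididymal fat, where they take up lipid and secrete cytokines such as tumour necrosis factor and interleukin 1. The epididymal pad lies against the epididymis, the duct in which sperm are stored and mature, and close to the testis.

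Levels are log2 processed signals minus the 75th percentile of the array, so that 0 is a probe at that percentile and a difference of 1 is a 2-fold change. The 75th percentile itself ran from 493 to 1588 scanner units on the HFC arrays and from 25.8 to 1235 on the HF5 arrays, where the lowest value was that of week 12. Between 63.8% and 92.1% of probes were well above background on HFC arrays and between 41.1% and 74.1% on HF5 arrays. The HF5 arrays were dimmer on average by a log2 difference of -1.13 (SD 2.15, n = 6 weeks, brighter at 2 of 6; exact two-sided sign-flip p = 0.3125, the smallest possible being 0.03125). The dimmest level that was well above background was -3.92 on the HF5 array of week 12 and lay between -9.03 and -6.37 on the other 11 arrays, so that a dim gene could not be measured on the HF5 array of week 12. The labelled tissue was checked against 15 general macrophage markers (Adgre1, Cd68, Csf1r, Lyz2 and others). All 15 were well above background on every array except the HF5 array of week 12, where 14 were. Their mean level lay between 0.81 and 3.18 on HFC arrays and between 1.25 and 3.57 on HF5 arrays, beside adipose progenitor markers at 2.25 to 3.32 and 1.89 to 3.26. Markers of both cell types were thus present on every array, and in such a mixture fewer cells of a type and less of its RNA per cell cannot be told apart.

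No probe passed the threshold. Of 33780 probes tested with limma, 0 (0%) had a Benjamini-Hochberg adjusted p below 0.05, and the smallest adjusted p was 0.738. At an unadjusted p below 0.05 there were 1619 probes (4.79%), of which 1259 (3.73%) were higher on HF5 and 360 (1.07%) lower. This split depended on the scaling: 1187 were higher and 597 lower after quantile normalization, 56 and 321 after normexp background correction with a 75th percentile shift, and 771 and 839 with array brightness as a covariate. After normexp with quantile normalization 1309 were higher and 360 lower. The median standard error of a difference was 0.42 and the median difference over all tested probes was -0.03. Among the 30622 probes measured at all 6 weeks, 427 (1.39%) were higher on HF5 at every week and 536 (1.75%) lower. In 6 probes (0.0178%) the HF5 levels and the HFC levels did not overlap, 5 of them measured on all 12 arrays and the other, Speer4d, on 6 HF5 and 5 HFC arrays. The genes named below were picked by small p, by a large difference at a single week, by lack of overlap, or as members of a list or family. None of them passed.

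Of the 12 genes of smallest p that were higher on HF5 at each week, 6 belonged to a Y-linked family of spermatids, and Rpl39l, M1ap and Fam209 are known from testis. In spermatogenesis, meiotic spermatocytes give round spermatids, which pack their DNA with transition proteins (Tnp1, Tnp2) and then protamines (Prm1, Prm2) and build the acrosome and the flagellum. The smallest p of all was that of Ccdc38, a coiled-coil protein of the sperm flagellum. Its level ran from -8.79 through a median of -7.93 to -6.03 on HFC arrays and from -7.58 through -3.33 to -0.80 on HF5 arrays. The HF5 levels of weeks 3, 9 and 18 lay above every HFC level, those of weeks 6 and 15 lay among them, and that of week 12 was not well above background. The difference was 3.83 (SE 0.81, limma p = 9.7e-05, adjusted p = 0.738), but Ccdc38 was well above background on 1 HFC and 4 HF5 arrays only. Gm7375, a predicted gene without a known role, was next, with levels from -5.69 to -4.77 on the 5 HFC arrays that measured it (its HFC spot of week 12 was left out as an outlier) and from -5.17 to -0.72 on HF5, a difference of 2.81 (SE 0.60, adjusted p = 0.738).

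Rpl39l, a copy of ribosomal protein L39 that is used mainly in testis, was well above background on all 12 arrays. On HFC it lay between -5.92 and -2.05 with a median of -3.49, and on HF5 between -3.48 and 1.03 with a median of 0.23. It was higher on HF5 at each week, by 3.83, 0.54, 6.96, 3.27, 0.15 and 5.56 from week 3 to week 18, and only the HF5 array of week 15 lay within the HFC range. Over the 6 weeks the difference was 3.39 (SE 0.81, limma adjusted p = 0.738). M1ap, a protein of the first meiotic division, was also measured on all 12 arrays and lay between -3.87 and -2.37 (median -3.53) on HFC and between -2.86 and -1.14 (median -1.73) on HF5. Its difference was 1.49 (SE 0.37, adjusted p = 0.738), and only the HF5 array of week 15 lay within the HFC range. Fam209, a protein of the forming acrosome, differed by 1.73 (SE 0.53) and 1700040F15Rik, of unknown role, by 1.96 (SE 0.51). Neither was well above background on the HF5 array of week 12. Catsperb, a subunit of the calcium channel of the sperm tail, and Speer4d, of a family of glutamate-rich proteins of spermatogenesis, were among the probes without overlap, with differences of 3.04 and 3.12. They were well above background on 1 and 3 HFC arrays and on 5 HF5 arrays each. The third probe without overlap on the higher side, named only by an accession, was measured on all 12 arrays and differed by 1.70.

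The 6 genes of the Y-linked family carried the file description of Sycp3-like Y-linked genes. Sly, the founder of this multicopy family on the mouse Y chromosome, is expressed in round spermatids after meiosis. Copies of the family are close to identical, so that their probes are not separate measurements: these 6 genes were read by 3 different probe sequences. Stretches of 30 bases of the 60-base designs are shown because they tell how far the signal is shared, with the run common to the first 2 designs, 41 bases long in full, in capitals.

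LOC100042201: GTACTCTTCTACTTTCCCATCTTCAGAAAA

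Gm20736: aatctgaaGTACTCTTCTACTTTCCCATCT

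LOC100040051: tcaaaaagaacaataagcattgaaactgtc

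The first sequence also read LOC100042121, the second also read LOC100042012 and LOC100041987, and each of these 2 was spotted under 4 tested probe names. The third was a design of its own, and no more than 6 bases in a row were common to all 3. LOC100042201 lay between -4.88 and -3.73 on HFC (median -3.86) and between -4.23 and -0.22 on HF5 (median -2.04), a difference of 1.93 (SE 0.53, limma adjusted p = 0.738). LOC100040051, with the unrelated sequence, differed by 1.35 (SE 0.41), from a median of -4.20 on HFC to -2.41 on HF5. Both were high on HF5 at weeks 3, 9 and 18 and differed by no more than 0.67 from the HFC array at the other 3 weeks. The HF5 array of week 12 was not well above background for any of the 6 genes.

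All probes of the family were then taken, a choice made after the values were seen. Of 72 probes 57 were tested, with 34 different sequences, so that they are not 57 separate readings. All 57 met the filter on the HF5 arrays of weeks 3, 9 and 18, where the family was high. Some passed it only with week 3 or week 9 in the fit. The share over all probes is therefore given beside their count as a scale and not as a test. All 57 were higher on HF5 over the 6 weeks and 50 had an unadjusted p below 0.05, against 3.73% higher at that p among all tested probes. That number was 32 of 51 without week 3, 34 of 51 without week 9 and 35 of 56 without week 18. Of the 57 it was 31 with the dose taken from the diet label, 13 by the methods' t-test and 0 after normexp and a 75th percentile shift. After normexp with quantile normalization it was 54 of the 57 probes. Their differences ran from 1.19 to 3.35 with a median of 2.23. By week the median difference of the family was 4.03 at week 3, 0.34 at week 6, 4.91 at week 9, 0.64 at week 12, -0.91 at week 15 and 4.16 at week 18. At weeks 3, 9 and 18 all 57 probes were well above background on HF5, against 21, 25 and 17 on HFC. At week 6 only 15 were so on HF5 and 20 on HFC, and at week 15 the family was lower on HF5. At week 12 only 5 probes were well above background on HF5, against 56 on HFC, and 43 had a value on both arrays. The median difference of 0.64 at week 12 is thus no measured value.

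A list of 17 genes of spermatids and sperm was higher on the same arrays. All 17 had a positive difference, with a median of 2.55 (range 1.12 to 3.44), the largest of the 42 lists, against -0.03 over all tested probes. An unadjusted p below 0.05 was found for 7 of the 17, against 3.73% higher at that p among all tested probes. Of these 7, Akap3, Tssk2 and Spata3 were well above background on HF5 at weeks 3, 9 and 18 only. They met the filter on HF5 through the arrays where the list was high, so that their p is no independent support. The mean level of the list on HFC was -2.47, -4.60, -6.34, -2.79, -3.21 and -3.68 from week 3 to week 18. On HF5 it was 0.03, -4.52, 1.24, -2.27, -4.96 and 1.47. The HF5 arrays of weeks 3, 9 and 18 lay above every HFC array, while that of week 15 lay below the HFC array of its week. On the HF5 array of week 12 only 7 of the 17 genes were well above background, against 17 on HFC, so that its mean is no measured level of the list, and the median difference of that week was -0.10. Prm1, a protamine, was at 5.58, 7.14 and 6.33 on HF5 at weeks 3, 9 and 18, saturated at weeks 9 and 18, and between -3.36 and 2.89 on HFC. Tnp2, a transition protein, was measured on all 12 arrays and lay between -4.54 and -2.93 on HFC and between -5.37 and 2.03 on HF5, a difference of 2.64 (SE 0.93, limma p = 0.00913). Ccin, calicin of the sperm head skeleton, differed by 1.12 (SE 0.37, p = 0.00548). Without week 18 none of the 17 had a p below 0.05, while of the 13 that passed the filter without week 9 or without week 3, 2 and 3 did. With the dose from the diet label 3 of the 17 did, after normexp and a 75th percentile shift 1, and by the methods' t-test 0. After normexp with quantile normalization 13 of the 17 did. Spermatids and sperm are no cells of fat, and the mean level of the list moved with the single genes above. A fit with that mean as a covariate was chosen after the data were seen. In it the limma difference was 2.07 (p = 0.00109) for Rpl39l and 0.91 (p = 0.00218) for M1ap, and 716 probes in all had an unadjusted p below 0.05. The covariate holds the HF5 mean of week 12, which is no measured level, and both genes had been picked by p. The fit therefore cannot tell whether they differ beyond the list. Where these transcripts came from was not tested.

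**Figure D1:**
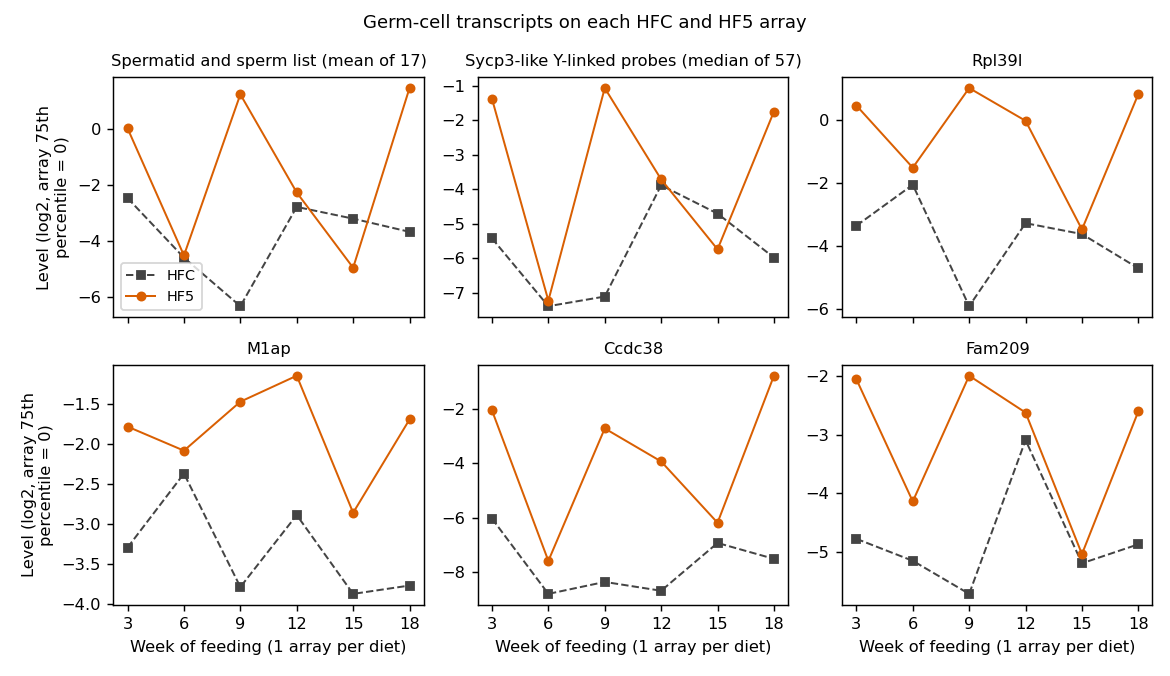
Level of the spermatid and sperm list (mean of 17 genes), of the Sycp3-like Y-linked probes (median of 57) and of 4 single genes on each HFC (grey squares) and HF5 (orange circles) array, in log2 units relative to the array's 75th percentile, against week of feeding with 1 array per diet and week. The HF5 arrays of weeks 3, 9 and 18 are high in each panel, those of weeks 6 and 15 lie close to or below HFC for both groups, and the 4 single genes lie higher on HF5 at each week. The HF5 points of Ccdc38 and Fam209 at week 12 were not well above background. On that array 7 of the 17 list genes and 5 of the 57 probes were.

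The same transcripts were set against the other doses, comparisons which share the HF5 arrays. The median difference of the spermatid and sperm list was 1.12 for HF5 minus HF20 and 2.39 for HF5 minus HF75, while HF20 minus HFC was 1.49 and HF75 minus HFC was -0.05. M1ap was higher on HF5 than on HF75 by 1.47 (limma p = 0.000627) and Gm7375 by 2.50 (p = 0.000432). Over all probes, 946 (2.8%) for HF5 minus HF20 and 2194 (6.49%) for HF5 minus HF75 had an unadjusted p below 0.05. For HF5 minus HF20 these were 159 higher and 787 lower, but 868 higher and 401 lower with the dose taken from the diet label, which says otherwise than the source name at weeks 15 and 18. In neither comparison did a probe have an adjusted p below the threshold (0 each). The HF75 array of week 3 was dim, with a 75th percentile of 88.4 scanner units and 47.1% of probes well above background. On the HF75 array of week 12, 14.3% of spots were outliers. The HF5 minus HF75 count was 1240 without week 3, 2244 without week 12 and 1327 without week 18. The smallest p for HF5 minus HF75 belonged to Il4i1, an amino acid oxidase of activated macrophages and dendritic cells (1.39, SE 0.32), to Gm5541 (1.54, SE 0.36) and to Spaca5, a lysozyme-like protein of the acrosome (2.09, SE 0.50), each with an adjusted p of 0.765. For HF5 minus HF20 they belonged to Nup214, a nuclear pore protein (-1.38, SE 0.29), 5730522E02Rik (-1.69, SE 0.37) and the olfactory receptor Olfr469 (-1.28, SE 0.28), all dim and well above background on 3 or 4 HF5 arrays.

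On the lower side the 12 genes that were lower at each week with the smallest p had smaller differences, between -1.33 and -0.55. No member of the 42 lists was among them. On the HF5 array of week 12 Ptprs, Bloc1s3, Dpysl2, Zhx1, Gm6993, Dhx8, Gm8785 and LOC100043272 were not well above background. Their difference at that week is thus no measured value. Ptprs, a receptor tyrosine phosphatase, lay between -4.73 and -2.94 on HFC (median -3.74) and between -5.27 and -3.95 on HF5 (median -4.87), a difference of -0.999 (SE 0.26, limma adjusted p = 0.738). M6pr, the receptor that carries newly made enzymes to lysosomes, was measured on all 12 arrays at 0.29 to 1.80 on HFC and -0.38 to 1.09 on HF5, a difference of -0.76 (SE 0.26), with p = 0.0746 when week 12 was left out. Pip4p1, a phosphatase of phosphoinositides on lysosomes, lay between -0.87 and 0.67 on HFC and between -3.56 and -0.39 on HF5, a difference of -1.33 (SE 0.43) with week 18 alone at -4.04. Bloc1s3, a subunit of the complex that forms lysosome-related organelles, differed by -0.74 (SE 0.21). The list of 14 lysosomal genes itself had a median of -0.10, with 0 of 14 at an unadjusted p below 0.05, and of 0.15 without week 12. M6pr, Pip4p1 and Gm8929 were lower on HF5 under all alternatives run, whereas the other 9 of the 12 became positive after normexp background correction with a 75th percentile shift, where the median over all probes was 0.26.

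The remaining genes on the lower side were Dpysl2, which binds microtubules (-0.70, SE 0.20), Zc3hc1, of the nuclear pore basket (-0.55, SE 0.18), Zhx1, a zinc finger and homeobox repressor (-1.21, SE 0.40), Dhx8, a splicing helicase (-0.79, SE 0.28), and 4 predicted genes or pseudogenes, Gm8929, Gm6993, Gm8785 and LOC100043272, at -1.14 to -0.57. Dhx8 had p = 0.0966 without week 12 and Gm8785 p = 0.0798 without week 3. The 3 lower probes without overlap were those of Mapk9, the kinase JNK2, of LOC630698 and of Ddrgk1, an adaptor of the ufmylation pathway in the endoplasmic reticulum. Ddrgk1 varied little within a diet: its 6 HFC levels lay between 3.70 and 4.17 and its 6 HF5 levels between 3.38 and 3.60, a difference of -0.35 (SE 0.27). Mapk9 lay between -2.54 and -1.41 on HFC and between -3.82 and -2.57 on HF5, a difference of -0.88 (SE 0.39). The lowest HF5 level of Mapk9 and of LOC630698 was that of week 12, which was not well above background for either. On the higher side, Rimklb, a ligase that makes N-acetylaspartylglutamate, differed by 1.52 (SE 0.52), and LOC674373, described in the file as similar to the translation factor eIF4E, by 0.59 (SE 0.20), both measured on all 12 arrays.

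**Figure D2:**
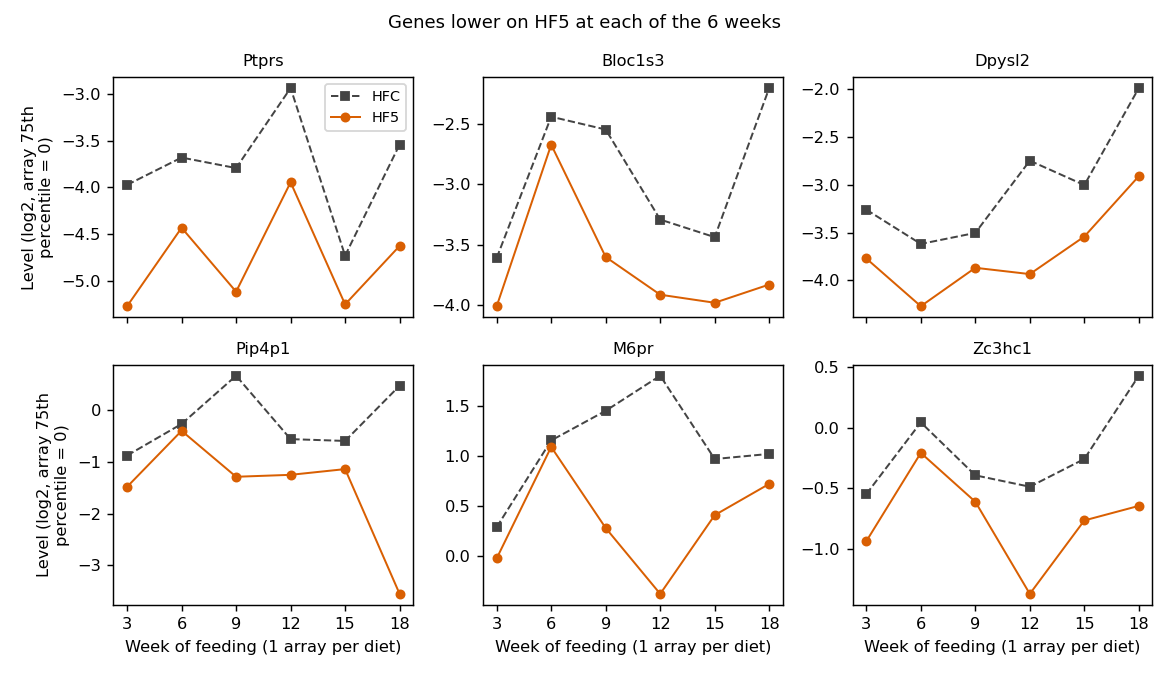
Level of 6 genes lower on HF5 at each week, on each HFC (grey squares) and HF5 (orange circles) array, in log2 units relative to the array's 75th percentile, against week of feeding with 1 array per diet and week. In this scaling the orange line lies under the grey line at all 6 weeks in each panel. Differences ran from -0.06 for M6pr at week 6 to -4.04 for Pip4p1 at week 18. The HF5 points of Ptprs, Bloc1s3 and Dpysl2 at week 12 were not well above background. Normexp background correction with a 75th percentile shift turned the order over the 6 weeks for all but Pip4p1 and M6pr.

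Whether diet set the labelled cells apart was not resolved, because the direction changed between weeks. The mean level of the general macrophage list was higher on HF5 at weeks 6, 9 and 15 and lower at weeks 3, 12 and 18. The 15 general macrophage markers had a median difference of -0.02 (range -0.35 to 0.63) with 0 of 15 at an unadjusted p below 0.05. Adgre1, the F4/80 antigen, differed by 0.16 (SE 0.50) and Csf1r, the receptor of macrophage colony-stimulating factor, by -0.31 (SE 0.52). Without week 12, where the HF5 array was the dimmest, 15 of 15 were positive and the median was 0.44. Lyz2, lysozyme of macrophages and neutrophils, was higher at 6 of 6 weeks, by 0.62 (SE 0.31, limma p = 0.053), but was at -0.22 after normexp and a 75th percentile shift. Of 14 tested genes of inflammatory macrophages, 11 were positive with a median of 0.60, and Il1a, interleukin 1 alpha, had the one p below 0.05 (1.96, SE 0.83, p = 0.0275). Il1a lay between -8.34 and -2.36 on the 5 HFC arrays that measured it and between -4.26 and -2.49 on HF5. Its lowest HFC level, that of week 9, was not well above background, and without that week the difference was 1.05 (p = 0.152). Tnf differed by 0.57 (SE 1.25), Il6 by 1.16 (SE 1.36) and Ccl2 by 0.80 (SE 0.74), none with such a p. Without week 9 the median of the list was -0.21, with 5 of 14 positive, and without week 12 it was 1.59, with 13 of 14. Of 11 genes of alternatively activated macrophages the median was 0.20, which was 0.67 without week 12 (11 of 11 positive) and -0.15 without week 15 (4 of 11). Chil3, a chitinase-like protein, was higher at 6 of 6 weeks by 1.40 (SE 0.77, p = 0.080). Lipid-associated macrophage genes had a median of -0.12 and 0 of 12 with such a p, and of 0.12 without week 12.

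Other leukocyte lists gave no gene at an unadjusted p below 0.05. Of 11 neutrophil genes 10 were positive, with a median of 0.94 and the largest difference in S100a9 (1.42, SE 0.98), a calcium-binding protein of neutrophil cytosol. That median was 0.50 without week 12 and 0.46 without week 15. The T cell and cytotoxic list had a median of -0.15 and the B cell list of -0.01, values which rested on single weeks. Without week 9 they were -0.83 (0 of 16 positive) and -0.61 (1 of 11), and without week 12 the T cell median was 0.32. Among secreted signals and matrix enzymes, Cxcl14, a chemokine of stromal cells, was higher on HF5 at 6 of 6 weeks. It lay between -1.69 and 2.08 on HFC and between 0.88 and 3.10 on HF5, a difference of 1.19 (SE 0.46, limma p = 0.0168), which was 0.87 (p = 0.103) without week 9. Mmp3, stromelysin 1, was also higher at 6 of 6 weeks, by 1.34 (SE 0.58, p = 0.0295) and by 1.05 (p = 0.0936) without week 9, and Mmp8, collagenase of neutrophils, by 1.71 (SE 0.85, p = 0.055). Of the 13 genes of metalloproteinases and their inhibitors 12 were positive, with a median of 0.23, but 6 of 13 were without week 6, with a median of -0.01. C5ar1, the receptor of complement fragment C5a, differed by 1.16 (SE 0.49), and by 0.90 (limma p = 0.127) without week 6. It was well above background on both arrays at 2 weeks only. Cd80, a costimulator on antigen-presenting cells, differed by 1.23 (SE 0.55), and by 0.82 (p = 0.139) without week 9. Cfb, complement factor B, went the other way by -0.84 (SE 0.39), and by -0.45 (p = 0.155) without week 12.

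**Figure D3:**
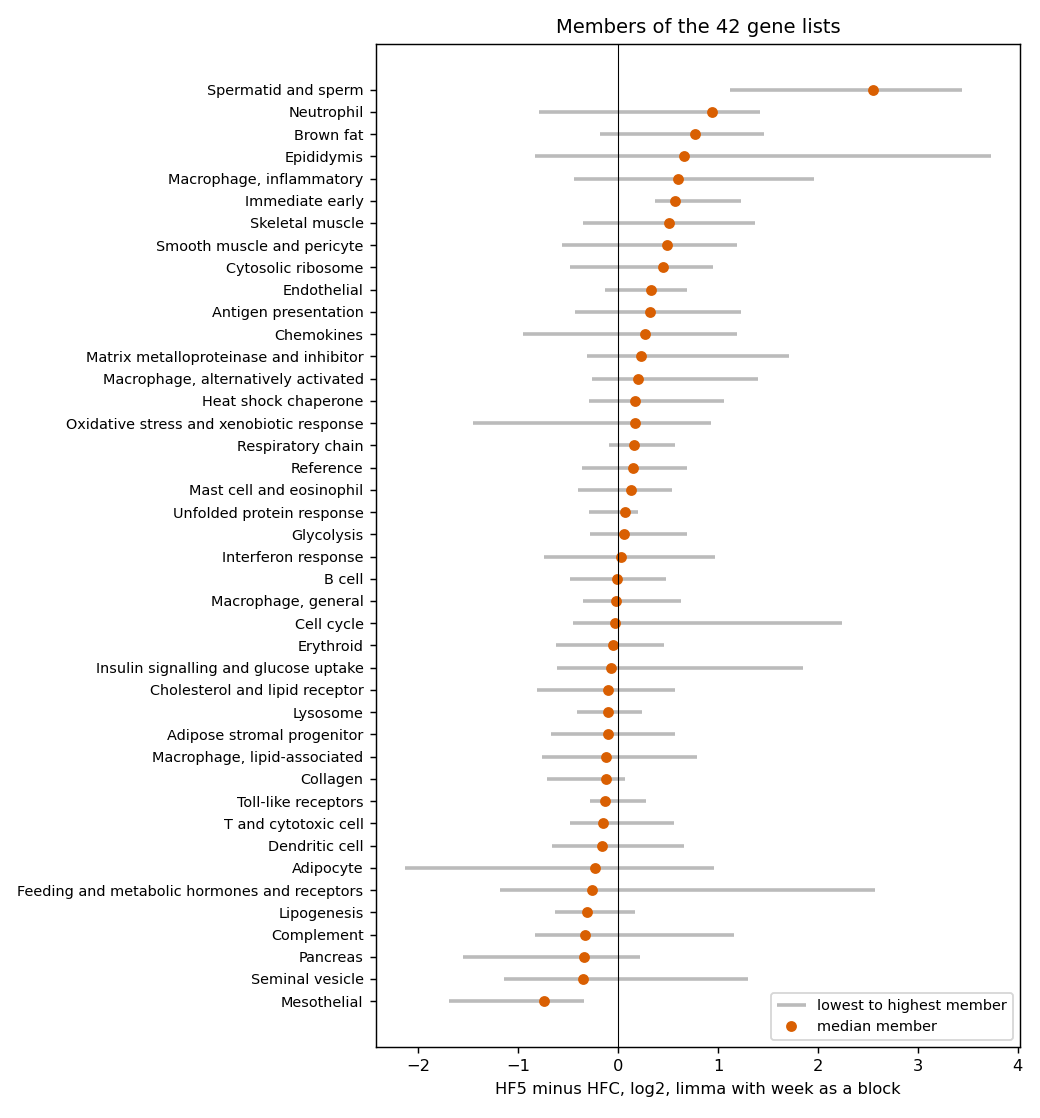
Median (orange point) and range (grey bar) of the HF5 minus HFC difference, in log2 units from limma with week as a block, over the tested members of each of 42 gene lists. The spermatid and sperm list stands highest with a median of 2.55 and no member below 1.12, the mesothelial list lowest at -0.74, and the general macrophage list lies at -0.02.

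The metabolic lists did not share a direction. Of 16 adipocyte genes 13 were lower on HF5, with a median of -0.24 and 0 of 16 at an unadjusted p below 0.05. Without week 12 the median was -0.69, and without week 9 it was -0.17, with 7 of 16 positive. Lep, the satiety hormone leptin of adipocytes, was lower at 6 of 6 weeks, between -3.57 and 5.01 on HFC and between -5.31 and -1.995 on HF5, with a difference of -2.13 (SE 1.34, limma p = 0.127). Lep was at 5.01 on the HFC array of week 9 and no higher than -1.71 on the other 5. Retn, resistin, differed by -1.47 (SE 0.97) and Adipoq, adiponectin, by -0.92 (SE 0.76). The 11 lipogenesis genes had a median of -0.31, 0 of 11 at such a p, with Scd1, stearoyl-CoA desaturase, at -0.60 (SE 0.50) and Fasn, fatty acid synthase, at 0.17 (SE 0.43). The sign of that median rested on week 9, without which it was 0.18 with 8 of 11 positive, while without week 12 it was -0.65. Respiratory chain genes were positive for 14 of 18 (median 0.16) and glycolysis genes for 9 of 12 (median 0.06), with 0 at such a p in either list, and without week 12 the medians were -0.20 and -0.02. In the list of insulin signalling and glucose uptake the median was -0.07 and 0 of 12 had a p below 0.05, with Insr, the insulin receptor, at -0.07 (SE 0.34) and Irs2, its substrate, at 0.55 (SE 0.67). Gsta4, a glutathione transferase that clears lipid aldehydes, was lower at all 5 weeks with a value on both arrays, between -2.51 and 0.74 on HFC and between -3.42 and -0.15 on HF5, a difference of -0.99 (SE 0.34, p = 0.0080).

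Among feeding hormones the pair ghrelin and ghrelin receptor stood out by p, both at the limit of detection. Ghrelin is a hunger hormone made mainly in the stomach. A Ghrl probe was the third of smallest p, at -8.34 to -5.54 on HFC and -6.14 to -3.93 on HF5, with a difference of 2.13 (SE 0.49, limma adjusted p = 0.738). It was well above background on 3 HFC and 5 HF5 arrays, and the second, brighter Ghrl probe differed by -0.26 (SE 0.60), so that the 2 probes of the gene disagreed. Ghsr, the receptor, lay between -5.86 and -2.91 on HFC and between -7.54 and -3.95 on HF5 and was lower at 6 of 6 weeks, by -1.18 (SE 0.35, adjusted p = 0.738), with 5 HFC and 3 HF5 arrays well above background, and by 0.23 in the other direction after normexp and a 75th percentile shift. Lepr, the leptin receptor, differed by 2.57 (SE 1.27, p = 0.054) and was higher at 5 of 6 weeks.

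Lists of neighbouring tissues were read on every array as well. The mesothelial list was lower on HF5 for 10 of 10 genes (median -0.74). At week 12 its mean was -3.17 on HF5, with 1 of 10 genes well above background, and 1.52 on HFC, and without that week the median was -0.25. Without week 9 it was -1.20. It was low on both arrays of week 6, at -4.94 on HFC and -5.28 on HF5. The epididymis list was high on both arrays of week 3 (2.53 on HFC, 3.20 on HF5), and was -3.996 on HFC and -7.76 on HF5 at week 6 and -7.80 and -2.24 at week 9. Cst8, a cystatin of the epididymis and testis, had the p below 0.05 of that list (3.73, SE 1.57, limma p = 0.026), with p = 0.126 without week 9. Cst8 was well above background on both arrays at 2 weeks only. Seminal vesicle genes were high on both arrays of week 18, at 5.99 and 5.58. Their part in the differences between diets was not tested.

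**Figure D4:**
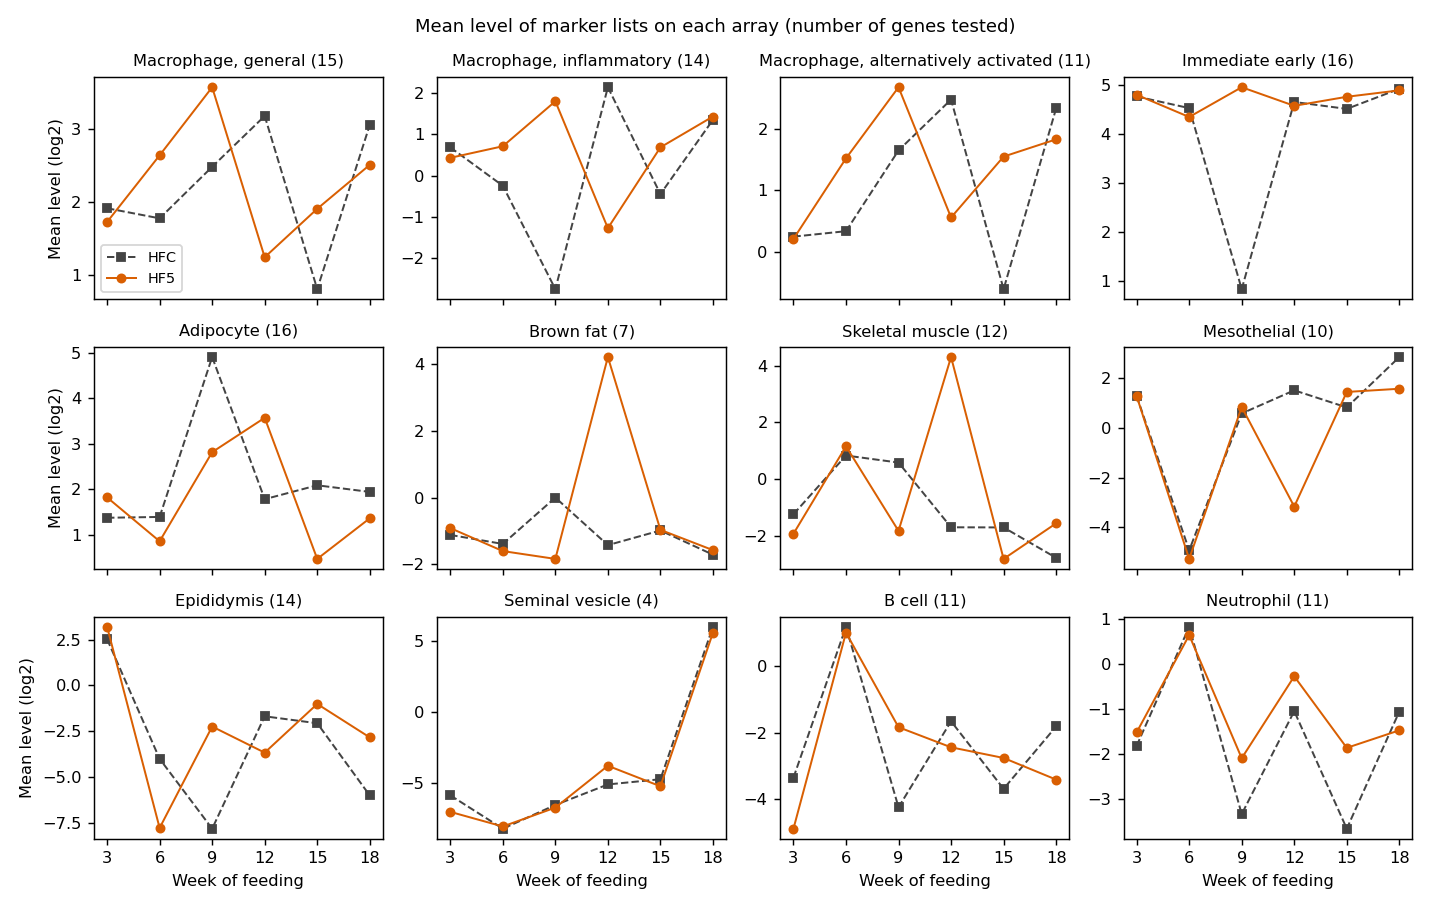
Mean level of the tested genes of 12 marker lists (number of genes in brackets) on each HFC (grey squares) and HF5 (orange circles) array, in log2 units relative to the array's 75th percentile, against week of feeding with 1 array per diet and week. Seminal vesicle genes were highest on both arrays of week 18, and on both arrays of week 6 the mesothelial genes were lowest and the B cell genes highest, whereas brown fat and skeletal muscle genes were highest on the HF5 array of week 12 and adipocyte genes on the HFC array of week 9.

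Week by week, in the scaling by the 75th percentile, the 2 diets were far apart at weeks 9 and 12 and closer at the other 4. With 1 array per diet there is no test within a week. Among probes well above background on both arrays, those at least 2-fold higher on HF5 made up 3.17% at week 3, 5.8% at week 6, 21.6% at week 9, 26% at week 12, 4.14% at week 15 and 6.75% at week 18. Those at least 2-fold lower made up 4.2%, 4.91%, 20.8%, 10.9%, 6.83% and 5.77%. Of the probes 2-fold apart, 37.7% were higher on HF5 at week 15 and 53.9% at week 18, which became 54.3% and 42.2% by quantile normalization. As a scale, between 11.7% and 37.7% of probes were 2-fold apart in the 15 pairs of HFC arrays of different weeks (median 31.96%) and between 12.7% and 43.9% in the 15 such HF5 pairs (median 31.2%). At weeks 3, 6 and 15 the diets, at 7.37%, 10.7% and 10.96% in all, were closer than any such pair. At week 18 they were 12.5% apart, at week 12 36.9%, and at week 9 42.3%, more than any HFC pair. This order depended on the background correction: after normexp and a 75th percentile shift 13253 of 26072 probes were 2-fold apart at week 18, against 11337 of 24417 at week 9 and 9601 of 15314 at week 12. The pair of week 3 shared a slide, the pairs of weeks 6, 12, 15 and 18 a scan day, and the pair of week 9 neither. The processed signals of the HF5 array of week 9 take 3944 distinct values, against 43613 on its HFC array, and its values were thus stored at another precision. Batch and diet cannot be told apart at week 9.

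**Figure D5:**
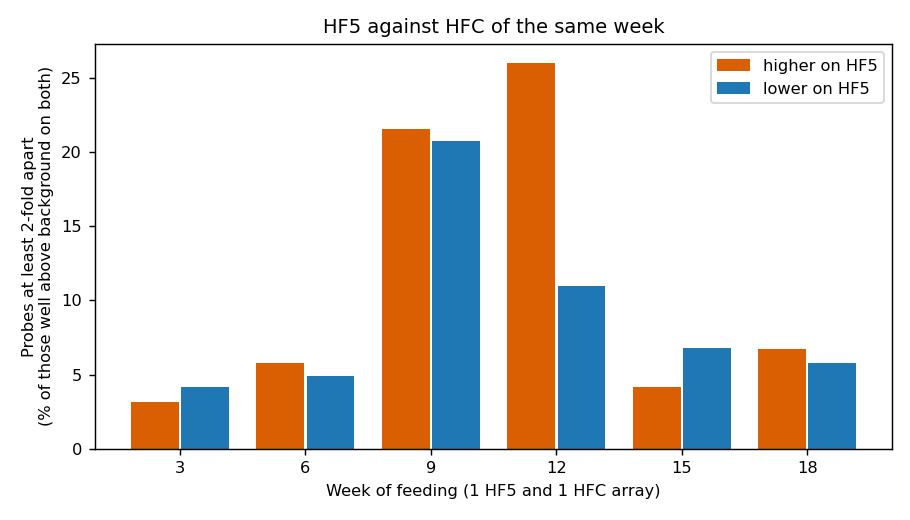
Share of probes at least 2-fold higher (orange) or lower (blue) on the HF5 array than on the HFC array of the same week, in percent of the probes well above background on both, by week of feeding. Weeks 9 and 12 stand out with 21.6% and 26% higher and 20.8% and 10.9% lower, and no bar of the other 4 weeks exceeds 6.83%.

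Of the 3 genes of largest difference in each direction at a week, only Spint4 came back, at weeks 3 and 15. At week 3 the predicted genes Gm20738, Gm20867 and Gm20809 were higher on HF5, with Gm20738 at 0.89 on HF5 and -4.33 on HFC, 37.4-fold higher, while 1700001L05Rik, Cfap70 and Spint4 were lower, Spint4 at -5.57 on HF5 and 2.69 on HFC. At week 6 Arg1, arginase 1 of alternatively activated macrophages, was at -0.41 on HF5 and -5.50 on HFC, 34.1-fold higher, with the neutrophil attractant Cxcl3 30.1-fold higher. Serpina16, Ptgds, which makes prostaglandin D2, and Wfdc6b were lower, Ptgds at -4.27 on HF5 against 5.69, at saturation, on HFC. At week 9 Prm1, saturated on HF5, was at least 1443-fold higher and Tnp1 1302-fold higher on HF5, and Lctl, Lep and the acute phase inhibitor Serpina3n were lower, Lep by 129-fold.

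On the same week 9 arrays the adipocyte list was at 4.91 on HFC and 2.82 on HF5, with 12 of its 16 genes saturated on HFC. Immediate early genes, such as Fos and Egr1, which are switched on within minutes of a stimulus and of tissue handling, were at 0.84 on HFC and 4.95 on HF5, and lay between 4.34 and 4.92 on the other 10 arrays. The list was positive for 16 of 16 genes over the 6 weeks (median 0.57) and for 7 of 16 without week 9 (median -0.02). Inflammatory macrophage genes were at -2.75 on the same HFC array and at 1.80 on HF5. At week 12 Ucp1, the uncoupling protein of brown fat, was at 6.93 on HF5 and -3.18 on HFC, 1103-fold higher, with Cox8b 1019-fold and the muscle oxygen carrier Mb 629-fold higher. The brown fat list was at 4.22 on HF5 and -1.43 on HFC and the skeletal muscle list at 4.30 and -1.70. The other 5 HF5 arrays had brown fat means between -1.85 and -0.92, and without week 12 the list medians were -0.41 for brown fat and -0.63 for skeletal muscle, against 0.76 and 0.51 with it. Rgs1, Lilr4b and the chemokine Ccl4 were lower on HF5 at that week, Ccl4 by 37.9-fold.

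At week 15 Sprr2a3, Gm2018 and Cst11 were higher on HF5, Sprr2a3 by 113-fold, and the epididymal genes Lcn5, a retinoic acid carrier, Spint4 and Spint5 were lower, Lcn5 at -3.998 on HF5 and 2.46 on HFC. At week 18 Akr1b7, an aldose reductase-like enzyme of the vas deferens and adrenal, Tgm4, the transglutaminase of the prostate, and Fcgbp were higher on HF5, by 571-fold, 176-fold and 146-fold. The major urinary proteins Mup1, Mup10 and Mup19, close copies whose probes may read each other, were lower by 57.6-fold to 62.6-fold. Few of these differences came back. Of all probes 12 were at least 2-fold higher on HF5 at 5 weeks and 0 at 6, and 25 were 2-fold lower at 4 weeks and 0 at 5. M1ap was among the 12, as was a second Prm1 probe (2.89 over the 6 weeks, limma p = 0.0281).

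Whether the difference between diets grew or shrank over the 18 weeks was tested as a slope on week. An unadjusted p below 0.05 was found for 149 probes (0.441%), of which 106 had a rising difference. With the dose from the diet label there were 842, 798 of them rising. In neither case did a probe pass (0 each). By source name the smallest adjusted p was 0.238 for Vmn2r90, a vomeronasal receptor, at 0.48 per week (SE 0.08), which was well above background on 3 HFC arrays and 1 HF5 array. Gm7253 gave 0.27 per week (SE 0.06) and Gm8874 0.34 per week (SE 0.08). Both were lowest on the HFC array of week 18: Gm7253 was at -1.84 there and between 1.001 and 2.98 on the other 5 HFC arrays, against 1.82 to 2.32 on HF5.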

How the data were processed

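RNA of epididymal stromal vascular cells was hybridised by the authors to one-colour (Cy3) Agilent mouse arrays. The deposited scanner files hold intensity values, background-subtracted and detrended within each array, made with Agilent Feature Extraction (10.5.1.1 per the file headers, 9.1 per the labels). The authors' deposited series table holds log2 ratios to the matched LFC array and was used as an alternative only. Here, spots marked as outliers were left out (11.1% on the HFC array of week 12, at most 0.153% on the other 11), saturated spots were kept, and log2 processed signals were shifted by the 75th percentile of each array and averaged over spots of a probe. Array number limits the precision. Symbols came from RefSeq (GRCm38.p6) for 69.2% of 40628 probes by accession, and otherwise by symbol, synonym or the file's own name. The array design uses another build, so no coordinates are given.

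Probes well above background on at least 50% of the arrays of a diet were tested with limma 3.58.1 in R 4.3.3 (lmFit and eBayes, two-sided, Benjamini-Hochberg, threshold 0.05) over the 30 arrays of weeks 3 to 18, with diet and week as factors. The time-point label pairs the arrays by week. The deviations of the HF5 and HFC arrays of a week correlated at 0.61, 0.69, 0.02, 0.48, 0.29 and 0.30 from week 3 to week 18. Named genes were the 3 probes of smallest p in each contrast, the 12 of smallest p in each direction among probes well above background on at least 10 of the 12 arrays and of 1 sign at 6 weeks, the 3 of largest difference in each direction at a week, and list members. For lists, each gene was read by its brightest probe on average. The probes without overlap and all Sycp3-like Y-linked probes were added after their values were seen. The comparison and the lists were chosen with earlier results of these data known. Alternatives changed the normalization, background correction, filter, samples, blocks, weights, dose label and test. The fit was tested on simulated data.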

Additional observations from a re-analysis of the deposited data

Results flagged for a closer look

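In 92 sets of 6 arrays of 1 diet (a quality measure or a list mean), 17 end arrays stood apart by Dixon's ratio. Chance gives about 1 in 20 sets, and the sets overlap in what they measure. No cause was tested.

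The HFC array of week 9 accounted for 7. Its adipocyte mean was 4.91 (the next HFC array at 2.09), its lipogenesis mean 2.79, its glycolysis mean 3.32 and its respiratory chain mean 4.51, all the highest of the 6, and its smooth muscle and pericyte mean 1.997, its immediate early mean 0.84 (the next at 4.51) and its heat shock chaperone mean 3.17 were the lowest.

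The HF5 array of week 12 accounted for 6. It had the lowest log2 75th percentile, 4.69, the lowest share of probes well above background, 41.1%, and the highest means of brown fat genes, 4.22, of pancreas genes, -2.18, of feeding hormones and receptors, -1.18, and of respiratory chain genes, 5.30. The dimmest level well above background on that array was -3.92. There 7 of 7 brown fat and 18 of 18 respiratory chain genes were well above background. Only 2 of 6 pancreas genes and 6 of 15 feeding hormones and receptors were, so that these 2 means are no measured levels.

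The HFC array of week 12 had 11.1% outlier spots, against at most 0.153% on the other HFC arrays. The mesothelial mean was lowest on the HFC array of week 6, at -4.94. Seminal vesicle genes were highest on both arrays of week 18, at 5.99 on HFC and 5.58 on HF5.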

How the results depend on the processing

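With 1 array per diet and week, an effect of the formulation that differs between weeks cannot be told apart from the spread between arrays. The depth of an array is its signal over background, which was lowest on the HF5 array of week 12. No probe passed the adjusted p for HF5 minus HFC in the 27 alternatives tried, except under array weights, where 38 did (25 higher), with M1ap, 1700040F15Rik, Ccdc38, Ghrl, Gm7375, LOC100042201, LOC100042121, Spaca5, Ptprs and Dpysl2 among the named genes. None passed for the other contrasts either, under the alternatives run for them.

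The count of 1619 probes at an unadjusted p below 0.05 depended on the setting. It was 4337 with array weights, 377 after normexp and a 75th percentile shift (56 higher), 193 and 202 when only probes well above background on all 30 or all 12 arrays were kept, 826 with scan day as the block, 955 without weeks 9 and 12, 716 with the spermatid and sperm mean as a covariate (added after the data were seen), and 610 and 385 by the methods' t-test without and with a 2-fold minimum. Leaving out 1 week gave 564 (week 9) to 1997 (week 12), with 961 without week 3 and 844 without week 18. With no replicate block, that is with the arrays not paired by week, it was 1045. With the dose from the diet label it was 1101, and with weeks 3 to 12 alone 1189. After normexp with quantile normalization it was 1669 (1309 higher). The diet label also gave 842 in place of 149 for the slope on week.

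Probes at least 2-fold apart numbered 1885, 2908, 10340, 5657, 3263 and 3264 from week 3 to week 18. After normexp and a 75th percentile shift they numbered 6754, 10017, 11337, 9601, 1549 and 13253, with week 18 above week 9. With no filter on dim probes they numbered 10712, 6197, 17284, 17994, 6993 and 8474. The share of these that was higher on HF5 was 37.7% at week 15 and 53.9% at week 18, and became 54.3% and 42.2% by quantile normalization and 49.95% and 30.2% by a median shift. At week 9 it was 50.9% and became 37.7% by a median shift. After normexp and a 75th percentile shift it ran from 4.93% at week 3 to 76.6% at week 18.

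Of the 12 lower genes of smallest p and the 3 lower probes without overlap, 11 turned positive after normexp and a 75th percentile shift: Ptprs 0.26, Bloc1s3 0.30, Dpysl2 0.23, Zc3hc1 0.020, Zhx1 0.28, Gm6993 0.11, Dhx8 0.19, Gm8785 0.23, LOC100043272 0.29, Mapk9 0.20 and LOC630698 0.073, where the median over all probes was 0.26 in place of -0.03. So did the HF5 minus HFC differences of Ghsr (0.23), Nup214 (0.27), 5730522E02Rik (0.23) and Olfr469 (0.27). None of the 12 higher genes of smallest p and the 3 higher probes without overlap turned, but the median over all probes moved in their direction. Of these 12 genes only Rpl39l kept an unadjusted limma p below 0.05 under that setting, and LOC674373 lay at 0.29. Of the list genes given above with an unadjusted p of at least 0.05, Adgre1 (-0.43), Lyz2 (-0.22), Fasn (-0.66) and Irs2 (-0.17) turned negative and Insr (0.33) and the brighter Ghrl probe (0.41) positive. Rpl39l kept an unadjusted p below 0.05 in 25 of 25 alternatives and M1ap in 25 of 26. The spermatid and sperm list had a median of 0.99 to 3.59, apart from the fit with its own mean as a covariate, the Sycp3-like Y-linked probes had 0 of 57 below that p after normexp and a 75th percentile shift, and the median of the general macrophage list ran from -0.36 to 0.44. After normexp with quantile normalization 54 of the 57 Sycp3-like Y-linked probes had an unadjusted limma p below 0.05. The difference in brightness was -1.47 to -0.31 with 1 week left out. The causes of these changes were not tested.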
